A study of Arabidopsis thaliana with 6 samples.

Results

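WRKY transcription factors are plant DNA-binding proteins that recognise W-box elements in gene promoters, and many of them are themselves switched on quickly by pathogens, wounding, heat or oxidative stress. They act downstream of mitogen-activated protein kinase cascades and inside the salicylate and jasmonate signalling networks, where some members activate defence genes and others restrain them. Many WRKY genes carry W-boxes in their own promoters, so members of the family can regulate one another. The set described here holds 9 Arabidopsis WRKY probe sets, chosen by probe set identifier, out of 22810 on the Affymetrix ATH1 array, of which 22746 were tested and 64 are manufacturer controls. They stand for WRKY33 (267028_at) and WRKY25 (267246_at) of group I, whose proteins carry a pair of WRKY domains, for WRKY75 (245976_at), WRKY18 (253485_at) and WRKY40 (261892_at) of group II, and for WRKY46 (263783_at), WRKY53 (254231_at), WRKY70 (251705_at) and WRKY30 (249770_at) of group III. The platform annotation used here names 1 of the 9, WRKY53, and the gene names of the other 8 come from the definition of the set.

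RNA came from a mixotrophic Arabidopsis thaliana cell culture, which photosynthesises and also feeds on organic carbon. The treated cells were kept for 4 h with phytoprostane A1 (PPA1) at 75 µM, a reactive oxylipin that forms without enzymes when a polyunsaturated fatty acid is oxidised. Control cells were kept as long with methanol in water at 0.5%, and each condition had 3 arrays. The sources used here do not give the genotype of the culture or say whether methanol also went to the PPA1-treated cells. The replicates are called independent in the labels without saying what separates them, so the p-values cover only the variation among these arrays. The question addressed is how transcript levels respond to such an oxylipin.

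Values are the authors' normalized signals on a linear scale. Array medians lay between 41.9 and 51.0, and the share of tested probe sets with a signal of 16 or more was 63.1% to 68.7%, with 16 being the limit under which signals are called dim here, since no detection calls were used. The number of arrays limits the precision. PPA1 replicate 1 stood apart from the other PPA1 arrays: among probe sets averaging 6 or more on the log2 scale, the SD of its log2 difference from PPA1 replicates 2 and 3 was 0.865 and 0.851, against 0.244 between PPA1 replicates 2 and 3 and 0.421 to 0.621 between control arrays. Results for the WRKY probe sets are therefore also given without that array. Of 21 cell type markers listed for a check of the material, 1 is named by the annotation, the root hair expansin EXPA7, whose signals were 1.92 to 10.3 after PPA1 and 4.60 to 11.8 in controls, all dim. The photosynthetic markers were not analysed here, so the label of a green culture was not checked.

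After PPA1, the 2 group I members and WRKY75 were higher on every array than on any control array, WRKY46 and WRKY18 were lower on every array than on any control array, and WRKY40 overlapped between the conditions. Among all tested probe sets, 10.8% were higher and 20.1% lower without overlap. With each array centred on its median, WRKY18 overlapped between the conditions. WRKY70 and WRKY30 were dim on all 6 arrays, and WRKY53 on all but PPA1 replicate 2. In RNA from whole cultures, a lower signal in all cells and a loss of the cells that carry the transcript cannot be told apart. No member passed the fit with condition as the only term (limma, Benjamini-Hochberg adjusted p under 0.05 over the 22746 tested probe sets), which called 1.8% of tested probe sets, so 0 of 9 were called. At an unadjusted p under 0.05 the same limma fit had 3 members higher, WRKY33, WRKY75 and WRKY25, and 1 lower, WRKY46, where 8.26% of tested probe sets were higher and 14.8% lower. Dim probe sets spread widely on the log2 scale, and a limma fit that lets the variance follow the signal level (robust variance trend) called WRKY33, WRKY75 and WRKY25 higher and 0 members lower, where it called 3.48% of tested probe sets higher and 5.15% lower.

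**Figure D1:**
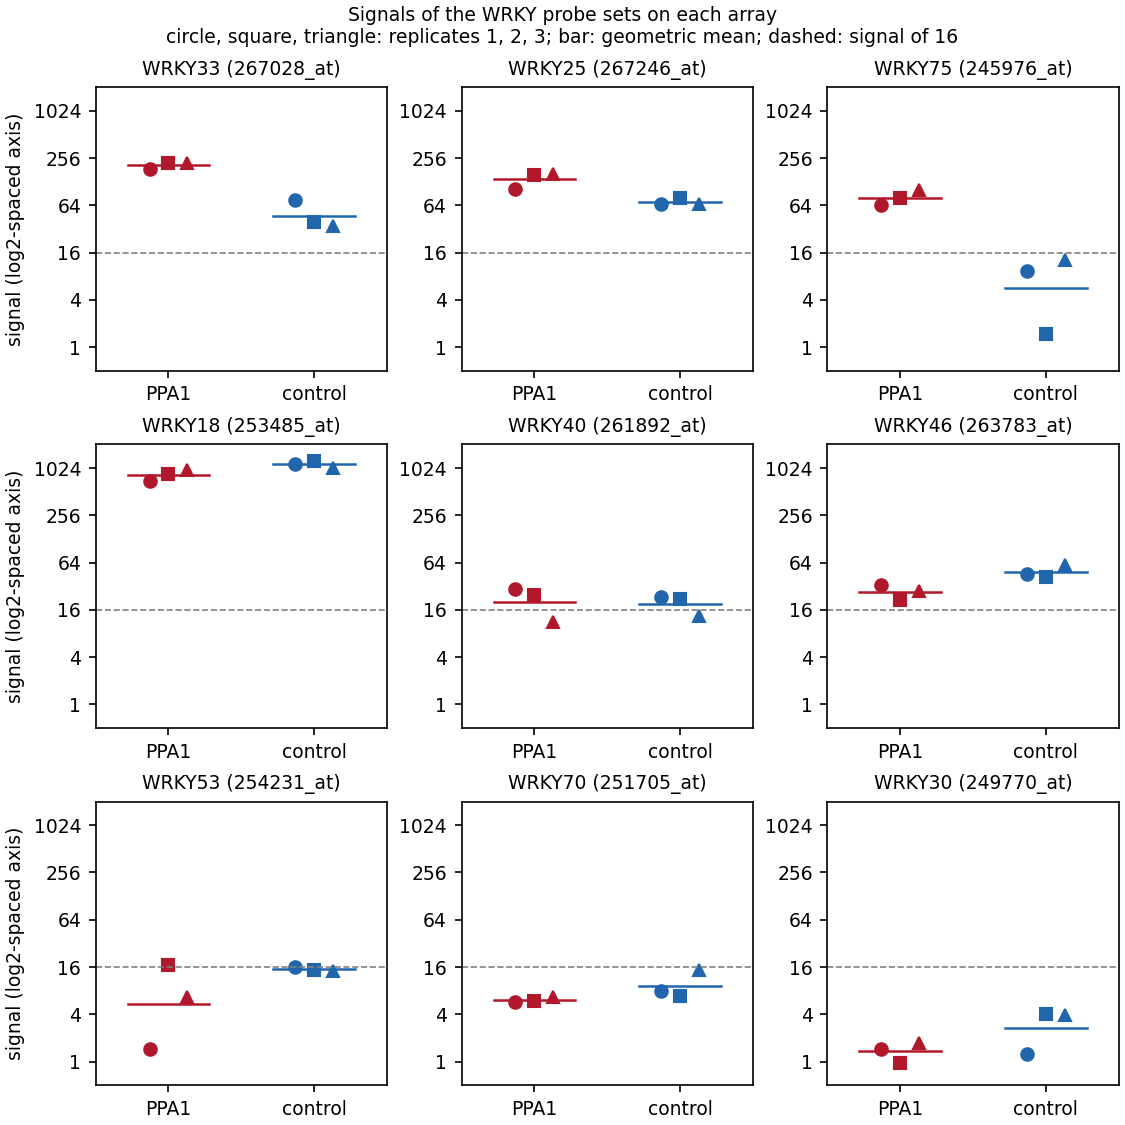
Signals of the 9 WRKY probe sets on the 6 arrays, on a log2-spaced axis, with PPA1 at the left and control at the right of each panel. Points are replicates 1 (circle), 2 (square) and 3 (triangle), bars are geometric means, and the dashed line marks a signal of 16. The conditions separate upward for WRKY33, WRKY25 and WRKY75 and downward for WRKY18, WRKY46 and the dim WRKY70, and they overlap for WRKY40, WRKY53 and WRKY30.

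WRKY33 (AT2G38470) is a substrate of stress-activated MAP kinases and is needed for camalexin production and for resistance to necrotrophic fungi. Its signals were 185, 222 and 223 in PPA1 replicates 1 to 3, against 75.6, 39.5 and 34.8 in control replicates 1 to 3. The lowest PPA1 array was thus well above the highest control array, and control replicate 1 was the highest of its group. The mean log2 signal was 7.71 ± 0.15 after PPA1 and 5.55 ± 0.60 in controls (SD, n = 3 each). The log2 change was 2.16 with a standard error of 0.35 in limma, which is 4.46-fold, with a 95% confidence interval from 2.47-fold to 8.06-fold. Its limma adjusted p was 0.05003, which narrowly misses the threshold, and by unadjusted p it stood at place 412 of the 22746, just behind the 410 called. With the robust variance trend the limma adjusted p was 0.00701, and 0.0587 when control replicate 2 was also left out. WRKY33 was also called with a limit of 6 on the mean log2 over all arrays, which it passed only through its PPA1 signals.

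WRKY25 (AT2G30250), the other group I member, is known from tolerance to heat and salt, and like WRKY33 it binds the MAP kinase substrate MKS1. Its signals were 104, 157 and 161 in PPA1 replicates 1 to 3, against 66.5, 78.6 and 67.3 in control replicates 1 to 3. All PPA1 arrays lay above all control arrays, with PPA1 replicate 1 closest to them. The mean signal was 141 ± 31.5 after PPA1 and 70.8 ± 6.72 in controls (SD, n = 3 each). The log2 change was 0.97 with a standard error of 0.25, or 1.96-fold, with a 95% confidence interval from 1.27-fold to 3.01-fold. The limma adjusted p was 0.106, and 0.0406 with the robust variance trend. That call was lost when any array other than PPA1 replicate 1 was left out (limma adjusted p from 0.108 to 0.169).

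WRKY75 (AT5G13080) is known for roles in phosphate starvation responses, root hair formation and leaf senescence. It had signals of 64.7, 80.2 and 101 in PPA1 replicates 1 to 3, against 9.31, 1.48 and 12.8 in control replicates 1 to 3. Its transcript was therefore measured on the 3 PPA1 arrays, while the control signals were all dim. With control signals held at 16, PPA1 was at least 5.04-fold higher. The fitted log2 change of 3.85 (standard error 0.84) rests on how far the dim control values fall, and with 32 added to each signal before the logarithm it was 1.51. The limma adjusted p was 0.0820, and 0.0211 with the robust variance trend. It was also called with a limit of 4 on the mean log2 over all arrays. Its mean log2 signal was 6.33 after PPA1 and 2.49 in controls. That limit kept WRKY75 only through its PPA1 signals, so the call is not separate support. The call under the trend was lost without PPA1 replicate 2 (limma adjusted p = 0.0738) or PPA1 replicate 3 (0.0945).

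WRKY18 (AT4G31800) and WRKY40 (AT1G80840) are closely related proteins that bind each other and act together as negative regulators of basal resistance. WRKY18 gave signals of 708, 859 and 976 in PPA1 replicates 1 to 3, against 1160, 1243 and 1039 in control replicates 1 to 3. Every PPA1 array was below every control array, by a small margin between PPA1 replicate 3 and control replicate 3. The mean signal was 847 ± 135 after PPA1 and 1147 ± 103 in controls (SD, n = 3 each). The log2 change was -0.45 with a standard error of 0.22, a 95% confidence interval from -0.98 to 0.09 and a limma adjusted p of 0.278, so it did not pass. After centring each array on its median, the log2 change was -0.23 and the arrays of the 2 conditions overlapped. With quantile normalization the log2 change was -0.48.

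WRKY40 gave signals of 29.4, 24.8 and 11.2 in PPA1 replicates 1 to 3, against 23.5, 22.3 and 13.5 in control replicates 1 to 3. The conditions overlapped fully, and the replicate 3 array was the lowest and a dim one in each condition. Its log2 change was 0.07, and the 95% confidence interval from -1.04 to 1.18 still holds a change of about 2-fold either way (limma adjusted p = 0.941). The sign of that change turned in several alternatives, for example to -0.20 without PPA1 replicate 1.

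WRKY46 (AT2G46400), a group III member that acts with WRKY53 and WRKY70 in basal resistance, had signals of 33.1, 21.4 and 28.2 in PPA1 replicates 1 to 3, against 46.2, 41.4 and 59.4 in control replicates 1 to 3. No PPA1 array reached the lowest control array, and this separation also held with each array centred on its median. The mean signal was 27.6 ± 5.87 after PPA1 and 49.0 ± 9.32 in controls (SD, n = 3 each). The log2 change was -0.84 with a standard error of 0.27, that is 1.78-fold lower after PPA1, with a 95% confidence interval from -1.49 to -0.18. It did not pass in limma, with an adjusted p of 0.148, or of 0.113 with the robust variance trend. Without PPA1 replicate 1 the trend fit called it lower, with a log2 change of -0.98 and a limma adjusted p of 0.0385, where it called 14.8% of tested probe sets lower.

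The other group III members gave dim signals on nearly all arrays, so no fold is given for them. WRKY53 (AT4G23810), a promoter of leaf senescence, had signals of 1.44, 17.0 and 6.62 in PPA1 replicates 1 to 3, against 15.9, 14.8 and 14.1 in control replicates 1 to 3. The PPA1 arrays ranged on both sides of the control values, and 1 of the 6 arrays reached 16. Its limma adjusted p was 0.368. WRKY70 (AT3G56400), which favours salicylate over jasmonate responses, stayed between 5.79 and 6.67 after PPA1 and between 6.84 and 14.5 in controls (limma adjusted p = 0.343). WRKY30 (AT5G24110), linked to oxidative stress tolerance, stayed between 0.972 and 1.74 after PPA1 and between 1.25 and 4.03 in controls (limma adjusted p = 0.316). At these signals neither a change nor its absence could be shown for these 3 genes.

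**Figure D2:**
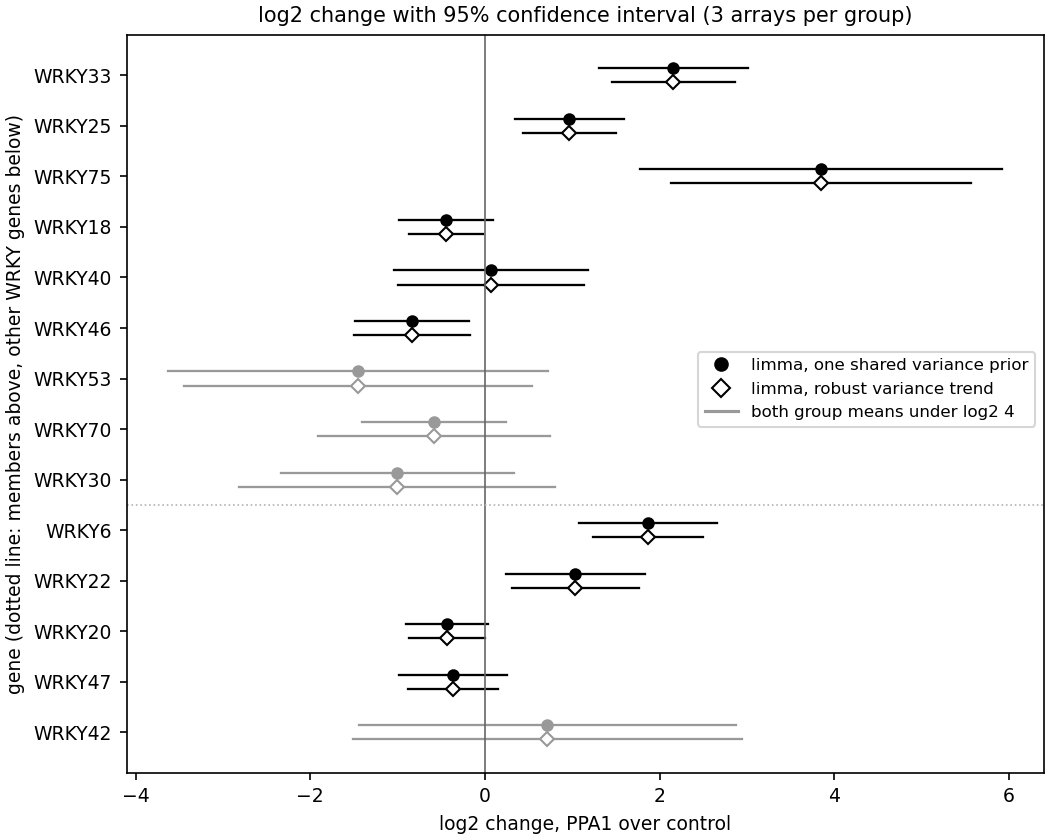
Log2 change, PPA1 over control, with 95% confidence intervals for the 9 WRKY probe sets (above the dotted line) and the 5 other WRKY probe sets the annotation names (below it), from the limma fit with condition only (circles) and with the robust variance trend (diamonds). Grey rows have both group means under a log2 signal of 4. The intervals of WRKY33, WRKY25, WRKY75, WRKY46, WRKY6 and WRKY22 leave out 0 in both fits, before any adjustment for multiple tests, and the size for WRKY75 rests on dim control signals.

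On the deposited scale the members did not all go one way. Their signals did not overlap between conditions in 3 members upward (WRKY33, WRKY25 and WRKY75) and 3 downward (WRKY18, WRKY46 and the dim WRKY70), against 10.8% of tested probe sets upward and 20.1% downward. With each array centred on its median the counts were 3 upward and 1 downward, WRKY46, against 16.8% and 12.9%. The downward count of 1 in 9 was then near the share over all tested probe sets. A two-sided exact permutation test on 3 against 3 arrays cannot go below 0.1. Each of the 6 members that did not overlap on the deposited scale had that value, which non-overlap fixes in advance, so it adds no support. The median log2 change of the 9 was -0.45, against -0.21 over all tested probe sets, and with signals under 16 raised to 16 it was 0.03 against 0. Limits on the mean log2 signal changed which members this median covers. The limit of 4 dropped WRKY30, WRKY53 and WRKY70, whose log2 changes were negative. The limit of 6 also dropped WRKY40, WRKY46 and WRKY75, and WRKY46 had no dim signal. Centring on array medians takes out the median shift of -0.21 over all tested probe sets. On that scale the log2 changes were 2.37 for WRKY33, 1.18 for WRKY25 and -0.62 for WRKY46. Among probe sets averaging 6 or more on the log2 scale the median shift was smaller, -0.11. With quantile normalization the log2 changes were 2.27 for WRKY33, 1.07 for WRKY25 and -0.59 for WRKY46.

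**Figure D3:**
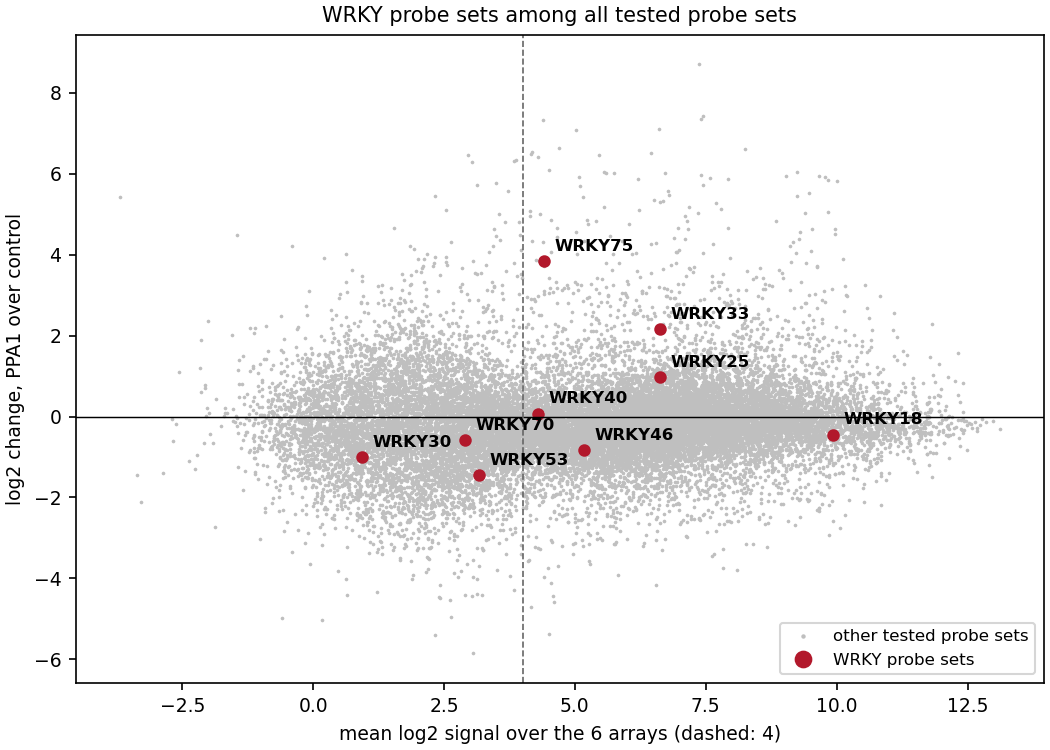
Log2 change, PPA1 over control, against the mean log2 signal over the 6 arrays for all 22746 tested probe sets (grey), with the 9 WRKY probe sets in red and the dashed line at a mean log2 signal of 4. WRKY33 lies above 97.5% of tested probe sets, the height of WRKY75 rests on dim control signals, and WRKY30, WRKY53 and WRKY70 lie left of the dashed line, where values spread widely.

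In the whole distribution of log2 changes, WRKY33 was above 97.5% of tested probe sets and WRKY25 above 90.1%. No place is given for WRKY75, whose change is known only as a lower bound. WRKY46 was above 20.1% and WRKY18 above 36.3%. These places describe size alone and take no account of replicate error.

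PPA1 replicate 1 gave smaller differences from the control mean than the other PPA1 arrays for WRKY33, WRKY25, WRKY75 and WRKY46. For these 4 members it lay between the control mean and both other PPA1 arrays, as it did for 31.6% of tested probe sets. On the log2 scale its difference was 88.1% of the mean difference of PPA1 replicates 2 and 3 for WRKY33, 48.3% for WRKY25 and 56.1% for WRKY46. For WRKY18 it was 215%, the PPA1 array farthest from the controls. Without this array the log2 changes were 2.25 for WRKY33, 1.17 for WRKY25, -0.98 for WRKY46 and -0.32 for WRKY18. The limma fit with condition only then called WRKY33 (adjusted p = 0.0344) and WRKY25 (0.0262) higher, where it called 6.32% of tested probe sets higher, while WRKY75 (0.0723) and WRKY46 (0.0754) did not pass. What sets this array apart was not tested.

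**Figure D4:**
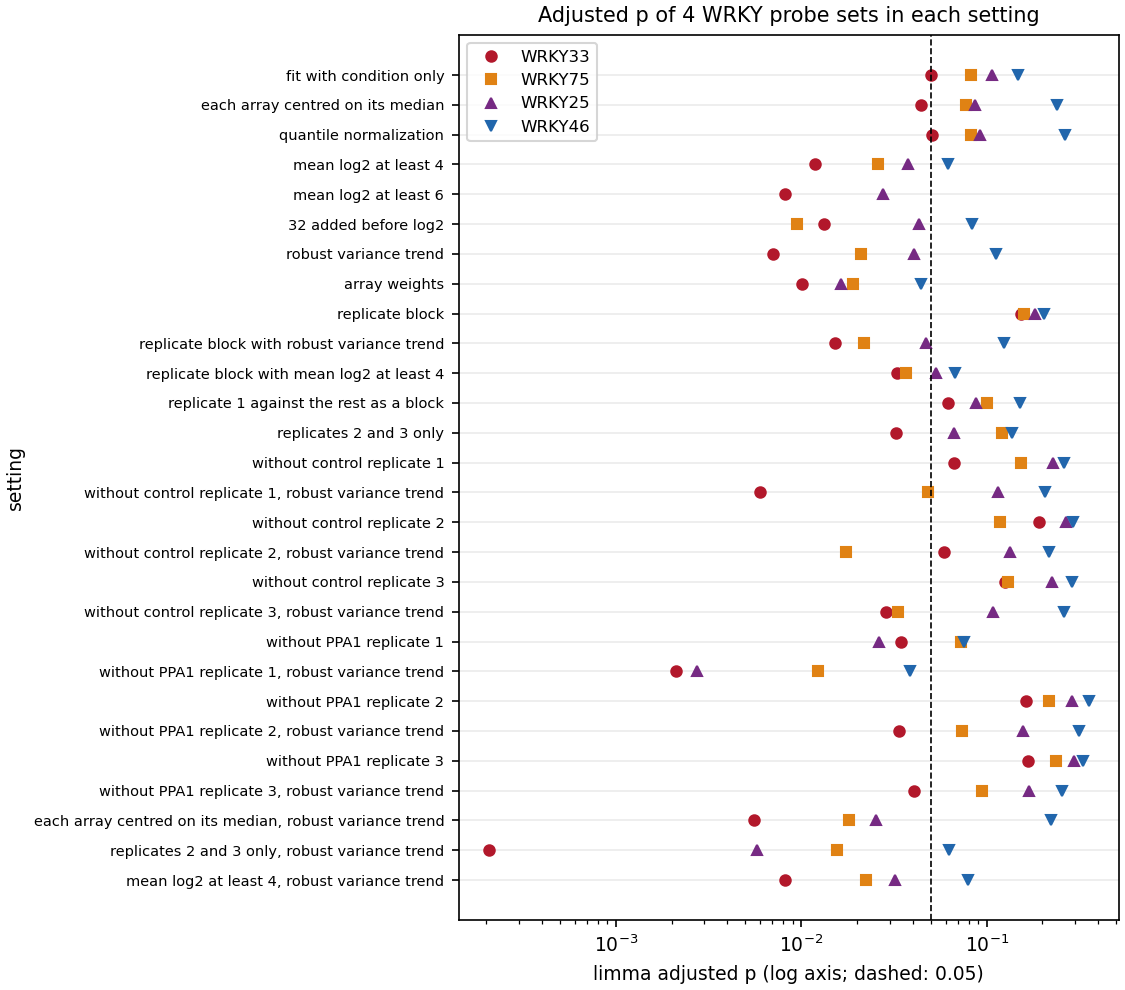
Limma adjusted p of WRKY33, WRKY75, WRKY25 and WRKY46 on a log axis, for the fit with condition only (top) and each alternative setting, with the dashed line at 0.05. WRKY33 sits at 0.05003 in the top row, and WRKY46 passes in the settings with array weights and without PPA1 replicate 1 under the robust variance trend. A missing point means that the probe set did not reach the signal limit of that setting.

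The annotation names 5 further WRKY probe sets, of which WRKY6 and WRKY22 were higher without overlap after PPA1, WRKY20 was lower without overlap, and WRKY47 and WRKY42 overlapped between the conditions. WRKY6, a factor of senescence and phosphate responses, had signals of 378, 332 and 358 in PPA1 replicates 1 to 3, against 140, 101 and 65.9 in control replicates 1 to 3. The conditions were far apart, with a log2 change of 1.87 and a standard error of 0.32, or 3.65-fold. The limma adjusted p was 0.0543, and 0.00788 with the robust variance trend. WRKY22, which lies downstream of the kinase cascade that relays the bacterial flagellin signal, had signals of 83.6, 52.2 and 54.7 in PPA1 replicates 1 to 3, against 42.3, 24.9 and 26.3 in control replicates 1 to 3. It was 2.05-fold higher after PPA1 without overlap, and did not pass (limma adjusted p = 0.143, and 0.0823 with the trend). WRKY20, a further group I member, gave 74.8 to 83.2 after PPA1 and 94.8 to 113 in controls, again without overlap, with a log2 change of -0.43 (limma adjusted p = 0.246). After centring each array on its median its log2 change was -0.22 and the conditions overlapped, while WRKY6 and WRKY22 stayed apart. With quantile normalization the log2 change of WRKY20 was -0.33. WRKY47 overlapped, at 103 to 144 after PPA1 and 128 to 189 in controls, and WRKY42 was dim, at 1.13 to 9.15 after PPA1 and 1.87 to 4.37 in controls. Of these 5, limma called 0 with condition only, where 1.8% of tested probe sets were called, and 1, WRKY6, with the robust variance trend, where 3.48% were called higher. The 2 higher and 1 lower without overlap stand beside 10.8% and 20.1% of tested probe sets.

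Lists of 44 genes of the pathways around these factors (MAP kinases, WRKY-binding VQ proteins, salicylate genes, WRKY33 targets, early immune reporters and senescence markers) had 1 gene named by the annotation. This was SAG101, a lipase-like partner of the immune regulator EDS1, which had signals of 19.5, 1.06 and 7.17 in PPA1 replicates 1 to 3, against 29.8, 34.9 and 22.5 in control replicates 1 to 3. Its PPA1 signals were all below its control signals, as for 20.1% of tested probe sets, and those of PPA1 replicates 2 and 3 were dim. SAG101 did not pass (limma adjusted p = 0.237). The other genes of these lists were not analysed here.

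The mean profile of the 9 members, each taken relative to its own mean log2 signal, was -0.09, 0.31 and 0.24 in PPA1 replicates 1 to 3 and -0.12, -0.35 and 0.01 in control replicates 1 to 3. It mixes members of both directions and separates the conditions poorly, since PPA1 replicate 1 lies within the control range. Dim signals count in it as much as bright ones, among them WRKY53 at 1.44 in PPA1 replicate 1 and WRKY75 at 1.48 in control replicate 2. How far such values shape the profile, and the likeness to it, was not tested. Among 5887 other single-gene probe sets averaging 6 or more on the log2 scale in one condition, the closest profile over the 6 arrays was that of AT4G35840, with Pearson's r = 0.996. AT1G36990 (r = 0.989), AT1G32810 and AT2G36680 (each r = 0.978) and AT1G04960 (r = 0.978) came next. These values are a description: the arrays share their conditions, and the 5 are the highest of the 5887.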

How the data were processed

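RNA of 6 samples was measured on Affymetrix ATH1 arrays, 3 per condition, after amplification and biotin labelling per the labels' protocols. The deposited intensity values are linear and were normalized by the authors. Per the submitters' processing notes GCRMA was used, in a version that the sources used here do not give. From these, log2 signals with no added constant entered lmFit and eBayes (limma 3.58.1, R 4.3.3) over 22746 probe sets without the 64 control rows, with condition as the only term, two-sided, with Benjamini-Hochberg adjustment and a threshold of 0.05. The fit was run on simulated data, with changes added only to probe sets averaging 6 or more on the log2 scale. Those data held no outlying array, so they say nothing of changes in dim members or of PPA1 replicate 1. Figures were drawn with Python 3.11.15 and matplotlib 3.10.9.

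The members, gene lists and tests were chosen with earlier results of these data known. All 9 members are described, along with other WRKY genes and listed genes that the annotation names, and the 5 single-gene probe sets closest in profile to the members' mean. The platform annotation used here names 14016 probe sets, 13513 with 1 symbol and 503 with several, and leaves 8730 tested probe sets unnamed. Symbols were updated for 13436 probe sets through gene identifiers of the TAIR10.1 RefSeq table, which also gave the members' locus tags by symbol. No sequences or coordinates are printed. Alternatives covered scaling, limits on dim probe sets, 32 added before log2, the robust variance trend, array weights, blocks and leaving out arrays, 24 of them planned and 3 chosen after seeing the data.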

Additional observations from a re-analysis of the deposited data

How the results depend on the processing

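Counts of members called are given with the share of all fitted probe sets called the same way. With condition only, limma called 0 members higher (0.809%) and 0 lower (0.994%; 3 and 1 at an unadjusted p under 0.05). WRKY25, WRKY33 and WRKY75, 3 members, were called higher with the robust variance trend (3.48%), a mean log2 of at least 4 (5.39%), 32 added before log2 (3.29%) and array weights (9.36%). A mean log2 of at least 6 called 2 of the 3 members it kept (7.91%). PPA1 arrays alone took WRKY75 past 4 and WRKY33 past 6. Median centring (1.05%) and replicates 2 and 3 only (3.38%) called 1, WRKY33. The trend joined to median centring (5.16%), to replicates 2 and 3 only (9.98%) or to the limit of 4 (6.16%), all chosen after seeing the data, called 3 each. Quantile normalization (0.901%), and a block that sets both replicate 1 arrays apart (0.73%), called 0 (limma, 3 higher at an unadjusted p under 0.05 in each). Array weights called 1 member lower, WRKY46 (14.6%). With condition only, leaving out 1 array called 0 to 2 members higher. The 2 came without PPA1 replicate 1 (6.32%), and leaving out any other array called 0 of the 22746 probe sets, so 0 members there says nothing of WRKY genes. With the trend, leaving out 1 array called 1 to 3 higher (0.642% to 10.2%) and 0 to 1 lower (0.475% to 14.8%). The 1 lower, WRKY46, came without PPA1 replicate 1 (14.8%). Equal replicate numbers could mark pairs. After subtracting group means, the arrays of replicates 1, 2 and 3 gave correlations of r = 0.06, 0.03 and 0.02 across all tested probe sets but 0.16, 0.24 and 0.15 where the mean log2 was at least 6, so a pairing by number was neither shown nor dismissed. The replicate block called 0 probe sets of any kind with condition only (limma, 3 members higher and 1 lower at an unadjusted p under 0.05). It called the same 3 members with the trend (3.66%) and 2 with the limit of 4 (4.11%), where WRKY25 had a limma adjusted p of 0.0531 with the block and 0.0378 without (0.00275 to 0.296 over all alternatives). The median log2 change of -0.45 became 0.52 with the limit of 4 (also with block or trend) and 0.97 with the limit of 6. These kept 6 and 3 members. The median was -0.070 with 32 added, -0.23 with median centring, and -0.55 to -0.25 when 1 array was left out (-0.25 without control replicate 3). The log2 change of WRKY40, 0.069, turned to -0.26 with array weights and -0.058 with replicates 2 and 3 only (also with trend). It lay between -0.20 and 0.49 when 1 array was left out, with -0.20, -0.082 and -0.18 without PPA1 replicate 1, PPA1 replicate 2 and control replicate 3. The directions of the other 8 members held in every alternative that kept them. The number of arrays and dim signals limit what can be shown.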
